A study of Tribolium castaneum with 183 samples.

Results

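Expression of the nuclear receptor genes FTZ-F1 (TC002550), SVP (TC001722) and HR38 (TC013146) was followed in whole females of the red flour beetle *Tribolium castaneum*. The genes were taken by identifier, as the study names them, and make up 3 of the 17078 genes in the deposited count table. RefSeq lists genes with the symbols ftz-f1, svp and Hr38 for this species, with 5, 4 and 3 transcript models. They were matched by symbol only. The authors counted reads on the Ensembl annotation, and a gene's count sums over its transcripts there. Females belonged to 4 conditions: Dry (33°C, 30% relative humidity, n = 48), Hot (37°C, 70%, n = 45), Hot-Dry (37°C, 30%, n = 43) and Control (33°C, 70%, n = 47). All were of the Cro1 strain, which was founded from a wild population and had lived in Control conditions for more than 20 generations. They came from 12 full-sib families whose eggs were divided over the conditions, so that every family and condition was represented by 3 or 4 sisters that had developed in the same vial. The sample labels call the females reproducing, and offspring numbers were not analysed here. Their age is 8 weeks in the sample labels and later by the account of the methods, and it entered no comparison.

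Nuclear receptors are transcription factors that bind DNA through a zinc finger domain and carry a second domain for a ligand or a partner. In insects, the steroid hormone ecdysone acts through the receptor EcR and its partner USP, which switch on a cascade of further nuclear receptors during moulting, metamorphosis and egg production. FTZ-F1 has no known insect hormone as a ligand; in *Drosophila* it gives tissues the competence to respond to the next ecdysone pulse and is a cofactor of the segmentation protein Fushi tarazu, and in the mosquito *Aedes aegypti* it makes the fat body competent to produce yolk protein. SVP (Seven-up) is the insect member of the COUP-TF group, known from photoreceptor fate in *Drosophila*, and in mosquitoes it can bind USP in place of EcR. HR38, the relative of the vertebrate receptor Nur77, also binds USP, and its gene is switched on by neuronal activity in *Drosophila*.

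The counts on genes ranged from 4873334 to 15533288 per female, with medians of 9630115 in Dry, 8652659 in Hot, 9057850 in Hot-Dry and 8451638 in Control. Levels are given in cpm, counts scaled to a common library size by TMM without regard to gene length, so levels were compared between females and not between genes. All 3 genes were counted in every female, with 223 to 1241 counts for FTZ-F1, 44 to 563 for SVP and 16 to 1959 for HR38. At the median library size 3 counts make 0.337 cpm, far below the lowest level of any of them. Markers of the female germ line were present: the gene Vasa was at 30.6 cpm or more and the yolk protein receptor gene VgR at 27.2 cpm or more in every female. Reads of the yolk protein genes Vg1 and Vg2 (vitellogenin) had a median share of 18.5% in Dry, 15.1% in Hot, 12.9% in Hot-Dry and 18.1% in Control, and fell below 3% in 2 Hot and 5 Hot-Dry females. In RNA of whole bodies, fewer cells of a type and less RNA per cell cannot be told apart.

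FTZ-F1 was lower in Hot and Hot-Dry than in Control, with its lowest median in Hot-Dry. Its lowest, median and highest levels were 44.2, 71.3 and 97.5 cpm in Dry, 36.2, 62.5 and 102 cpm in Hot, 39.4, 56.1 and 95.8 cpm in Hot-Dry, and 41.2, 73.4 and 119 cpm in Control. The ranges of all 4 conditions overlapped, yet only 6 of 43 Hot-Dry females and 13 of 45 Hot females were above the Control median, as were 23 of 48 Dry females. Means were 72.9 ± 12.8 cpm in Dry (SD, n = 48), 65.4 ± 16 cpm in Hot (SD, n = 45), 57.9 ± 12.4 cpm in Hot-Dry (SD, n = 43) and 74.7 ± 18.4 cpm in Control (SD, n = 47). All 12113 genes with enough counts were tested with edgeR's quasi-likelihood test, and a gene was called DE (differentially expressed) where its p, adjusted after Benjamini and Hochberg, was at most 0.05.

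Relative to Control, FTZ-F1 fell by 0.37 on the log2 scale in Hot-Dry (SE 0.068, adjusted p = 4.11e-06), to 0.774 of its Control level. It fell by 0.19 in Hot (SE 0.067, adjusted p = 0.0238), a ratio of 0.876. In Dry the difference was -0.04 (SE 0.066, adjusted p = 0.962), with a 95% interval of -0.16 to 0.09. Of all genes tested, 30.7% were DE in Hot-Dry, 25.1% in Hot and 0.809% in Dry, so a call in a hot condition was common among genes. The comparison of Hot-Dry with Dry, in which temperature alone differs, gave -0.33 (SE 0.068, adjusted p = 2.83e-05), where 32.3% of genes were DE. Between Hot-Dry and Hot the difference of -0.18 did not pass the test (SE 0.068, adjusted p = 0.168), nor did that of -0.16 between Hot and Dry (SE 0.067, adjusted p = 0.0602). These comparisons called 2.28% and 32.2% of genes.

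The decrease of FTZ-F1 in Hot-Dry was present in 11 of 12 families against Control and in 11 of 12 against Dry, and the decrease in Hot in 10 of 12. When the counts of sisters were summed and family entered as a block, which treats the 48 combinations of family and condition as the units, Hot-Dry against Control gave -0.35 (SE 0.077, adjusted p = 0.0012) and Hot against Control -0.18 (SE 0.077, adjusted p = 0.0967). In that fit the share of all genes called was 0.0413% for Dry, 16.2% for Hot and 22.8% for Hot-Dry against Control, 25.2% for Hot-Dry against Dry, 0.38% for Hot-Dry against Hot and 25.7% for Hot against Dry. The call in Hot-Dry held in all 18 alternative analyses (adjusted p from 6.75e-07 to 0.00806), whereas that in Hot was lost in 6 of 18 (adjusted p from 0.0071 to 0.268). Without family 245, 432, 496, 863 or 1077 the call in Hot was lost as well, at -0.18, -0.16, -0.17, -0.15 and -0.15. The females with under 3% vitellogenin reads had 36.2 and 55.2 cpm of FTZ-F1 in Hot, and 39.9 to 56.0 cpm in Hot-Dry. Without these 7 females the difference was -0.33 in Hot-Dry (adjusted p = 6.93e-05) and -0.17 in Hot (adjusted p = 0.0559).

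SVP was lower in Hot-Dry than in each of the other conditions by its mean, and passed the test against Control and Dry. Its lowest, median and highest levels were 15.7, 30.8 and 48 cpm in Dry, 8.46, 26.0 and 50.1 cpm in Hot, 12.5, 24.5 and 49.3 cpm in Hot-Dry, and 16.5, 28.4 and 46.6 cpm in Control. Ranges overlapped throughout, and 28 of 48 Dry, 18 of 45 Hot and 9 of 43 Hot-Dry females were above the Control median. Means were 30.9 ± 7.31 cpm in Dry (SD, n = 48), 27.4 ± 8.61 cpm in Hot (SD, n = 45), 24.1 ± 6.66 cpm in Hot-Dry (SD, n = 43) and 29.0 ± 6.79 cpm in Control (SD, n = 47).

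In Hot-Dry SVP fell by 0.27 relative to Control (SE 0.081, adjusted p = 0.00609), to a ratio of 0.830, and by 0.36 relative to Dry (SE 0.081, adjusted p = 0.000149), to a ratio of 0.779. Single stressors gave 0.09 in Dry (SE 0.078, adjusted p = 0.859) and -0.08 in Hot (SE 0.080, adjusted p = 0.497). The 95% interval in Hot, -0.24 to 0.07, included decreases close to that of Hot-Dry. Hot-Dry against Hot gave -0.19 (SE 0.082, adjusted p = 0.259) and Hot against Dry -0.17 (SE 0.079, adjusted p = 0.08), neither of which passed. SVP was lower in Hot-Dry in 10 of 12 families, against Control as well as against Dry. The sums with a family block gave -0.26 against Control (adjusted p = 0.0481) and -0.34 against Dry (adjusted p = 0.0101). The call against Control was lost in 2 of 18 alternatives (adjusted p up to 0.191). These were sums of sisters without a block and limma-voom with a correlation within family and condition. Like the sums with a family block, they do not take sisters of a vial as independent. The call against Dry was lost in 1 alternative, the sums without a block (0.0606). Without the females low in vitellogenin the differences were -0.30 and -0.39, and in that set of 5 Hot-Dry females SVP ranged from 18.9 to 49.3 cpm.

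HR38 had higher medians in the 2 hot conditions, but its spread was wide and no comparison passed the test in the fit to single females. Its lowest, median and highest levels were 3.29, 12.5 and 171 cpm in Dry, 3.08, 21.6 and 95.2 cpm in Hot, 4.35, 21.5 and 54.6 cpm in Hot-Dry, and 3.92, 13.3 and 58.6 cpm in Control. The ranges overlapped almost wholly, while 36 of 45 Hot and 36 of 43 Hot-Dry females were above the Control median, as were 22 of 48 Dry females. Means were 18.8 ± 25 cpm in Dry (SD, n = 48), 23.7 ± 15.6 cpm in Hot (SD, n = 45), 22.5 ± 10.2 cpm in Hot-Dry (SD, n = 43) and 17.1 ± 11 cpm in Control (SD, n = 47). The plot of single females sets these patterns side by side.

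**Figure D1:**
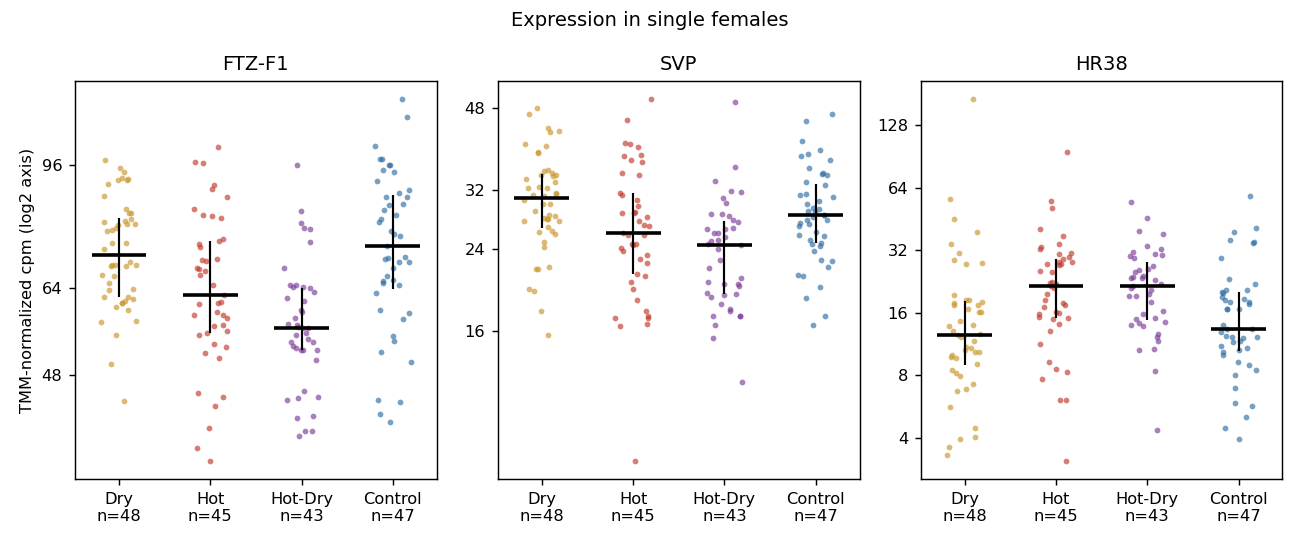
TMM-normalized cpm (log2 axes) of FTZ-F1, SVP and HR38 in single females of the Dry (n = 48), Hot (n = 45), Hot-Dry (n = 43) and Control (n = 47) conditions. Horizontal bars are medians and vertical lines span the quartiles; FTZ-F1 has its lowest median in Hot-Dry, at 56.1 cpm, and HR38 reaches 171 cpm in 1 Dry female.

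The difference of HR38 from Control was 0.47 in Hot (SE 0.193, adjusted p = 0.0571), a ratio of 1.39, and 0.39 in Hot-Dry (SE 0.195, adjusted p = 0.115), a ratio of 1.31. In Dry it was 0.14 (SE 0.190, adjusted p = 0.938). Family means were higher than in Control in 10 of 12 families in Hot and in 11 of 12 in Hot-Dry, but in 2 of 12 in Dry. Hot-Dry against Dry gave 0.26 (SE 0.193, adjusted p = 0.324), Hot against Dry 0.34 (SE 0.191, adjusted p = 0.173) and Hot-Dry against Hot -0.08 (SE 0.196, adjusted p = 0.934). In the sums with a family block HR38 was called in Hot against Dry (0.59, adjusted p = 0.0395). Hot-Dry against Dry did not pass there (0.47, adjusted p = 0.0968).

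A single Dry female, number 2 of family 293, bore on these values. HR38 was at 171 cpm in this female (1959 counts), 13.6 times the Dry median, and the next Dry female reached 56.7 cpm. Its FTZ-F1 level of 97.5 cpm was the highest of the 48 Dry females and 1.37 times the Dry median, its SVP level of 31.5 cpm was 1.02 times it, and its levels of the other nuclear receptors examined lay between 0.930 and 1.34 times it. Vitellogenin took 11.3% of its reads, where the Dry females had a lowest share of 9.48% and a median of 18.5%. Its median correlation with the other libraries was 0.956, within the range from 0.925 to 0.968 over all libraries, and 37 libraries had a lower one. Without this female, the Dry mean was 15.6 ± 11.1 cpm (SD, n = 47) and HR38 was called in Hot against Control (0.47, adjusted p = 0.0333), Hot-Dry against Dry (0.53, adjusted p = 0.0129) and Hot against Dry (0.61, adjusted p = 0.00343). Hot-Dry against Control then gave 0.39 (adjusted p = 0.0776), and the difference in Dry turned to -0.14 (adjusted p = 0.895).

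Across the 18 alternatives, HR38 was higher in Hot than in Control in each, by 0.41 to 0.54, and was called in 7 (adjusted p from 0.0105 to 0.376). It was also called without family 293 (0.49), 638 (0.63) or 1077 (0.60). In Hot-Dry it was called in 3, with values from 0.36 to 0.51 (adjusted p from 0.028 to 0.484). With the replicate number as a block, the differences were 0.41 in Hot (adjusted p = 0.0459) and 0.41 in Hot-Dry (adjusted p = 0.0414), and with family as a block 0.51 (adjusted p = 0.0105) and 0.44 (adjusted p = 0.0281). The sums with a family block, which do not take sisters of a vial as independent, gave 0.54 in Hot (adjusted p = 0.0792) and 0.42 in Hot-Dry (adjusted p = 0.148). The females with under 3% vitellogenin reads had 40.4 and 50.9 cpm of HR38 in Hot, both above the Hot median of 21.6 cpm, and 10.7 to 39.6 cpm in Hot-Dry. Without these 7 females the difference was 0.41 in Hot (adjusted p = 0.114) and 0.37 in Hot-Dry (adjusted p = 0.171).

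**Figure D2:**
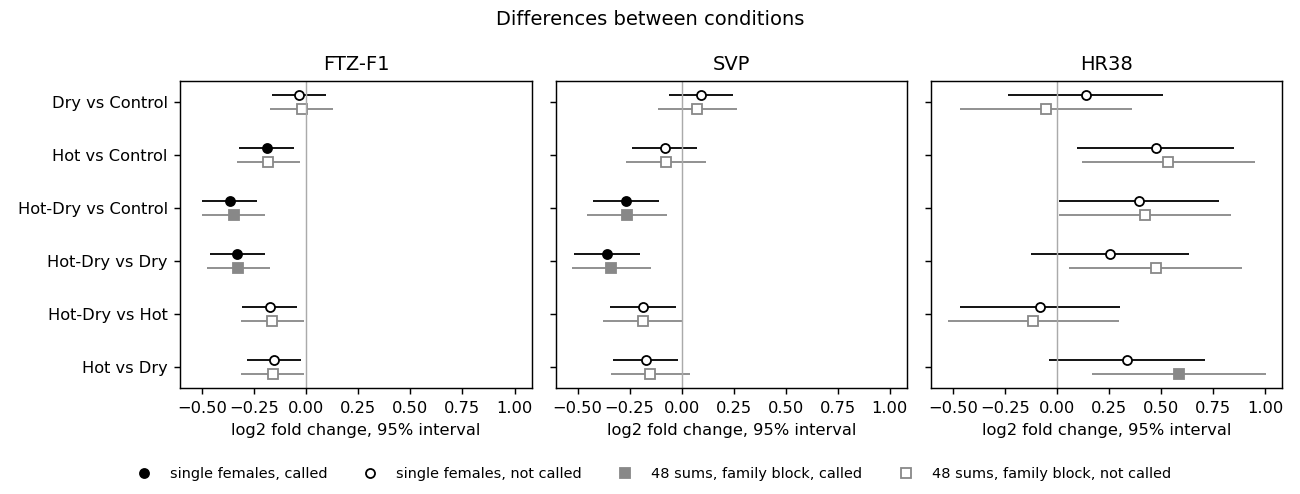
Log2 fold changes of FTZ-F1, SVP and HR38 in the 6 pairs of conditions, with 95% intervals, from the fit to single females (black circles) and from 48 sums per family and condition with a family block (grey squares). Filled symbols passed an adjusted p of 0.05; for FTZ-F1 and SVP the filled symbols lie below 0, from -0.19 to -0.37, and HR38 has a single filled symbol, for Hot against Dry in the sums.

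Whether heat and drought together gave more or less than the sum of their separate differences was tested by their interaction. It was -0.14 for FTZ-F1 (SE 0.095, unadjusted p = 0.139), -0.28 for SVP (SE 0.113, unadjusted p = 0.0148) and -0.22 for HR38 (SE 0.273, unadjusted p = 0.426). None passed after adjustment (0.907 for SVP, over 0.99 for the others), and 0.00826% of all genes did. In the fit to single females the 95% interval for SVP was -0.50 to -0.06. That unadjusted estimate put its Hot-Dry level below the sum of the Dry and Hot differences. The sums with a family block gave -0.26 (unadjusted p = 0.0664), with an interval of -0.53 to 0.009 that included 0.

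The families differed in the level of all 3 genes. The difference between the highest and the lowest family, over conditions, was 0.49 on the log2 scale for FTZ-F1 (F = 2.72, adjusted p = 0.0174), 0.74 for SVP (F = 3.65, adjusted p = 0.00334) and 1.79 for HR38 (F = 4.71, adjusted p = 0.000607), tested on sums with 11 degrees of freedom. Such differences were common, as 77% of all genes passed the same test. Family means over the 4 conditions ran for FTZ-F1 from 55.2 cpm in family 103 to 77.4 cpm in family 1005, and for SVP from 21.9 cpm in family 245 to 36.8 cpm in family 638. For HR38 they ran from 12.8 cpm in family 348 to 35.3 cpm in family 293, the family of the Dry female described above, and the difference without that female was 1.46 (adjusted p = 0.000839).

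**Figure D3:**
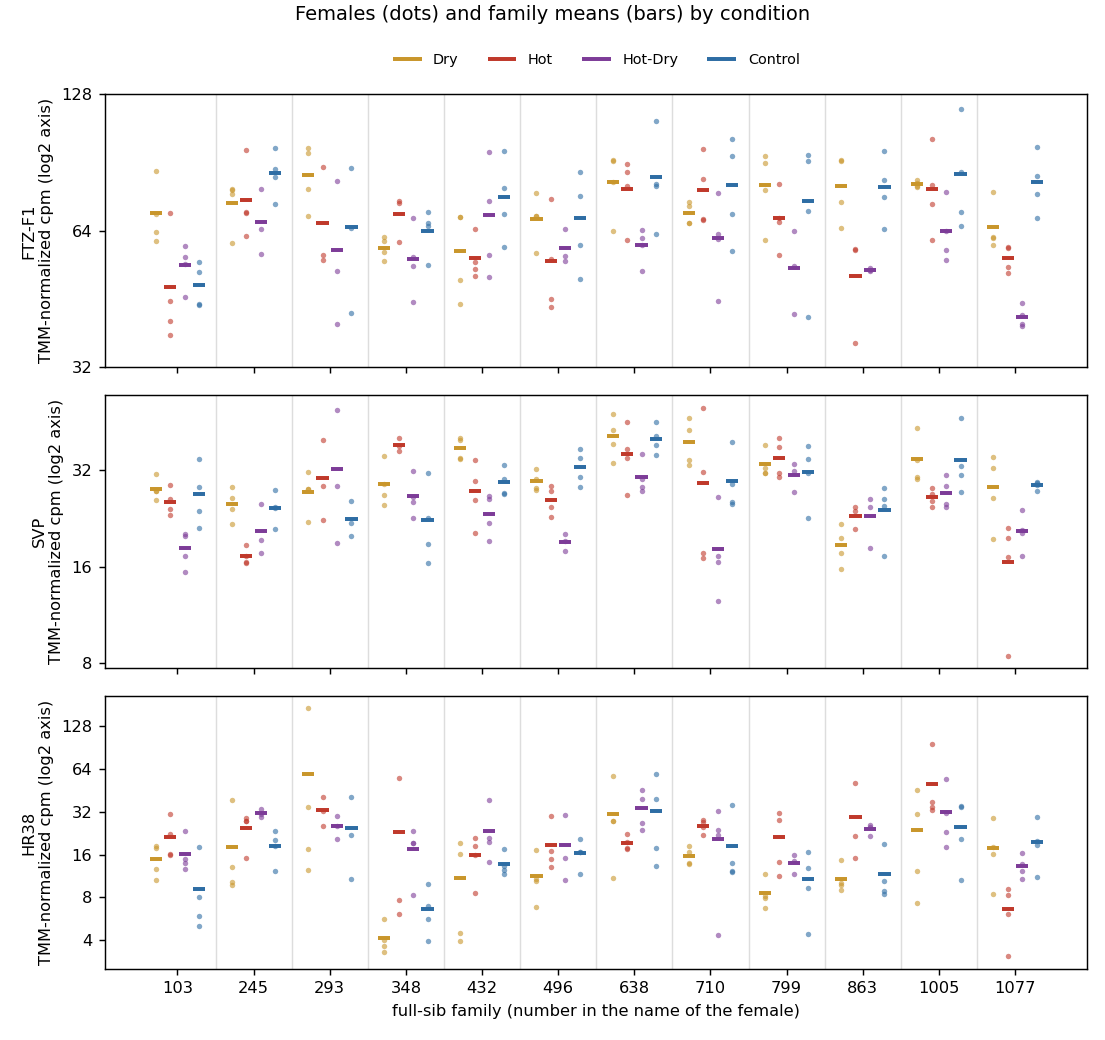
TMM-normalized cpm (log2 axes) of FTZ-F1, SVP and HR38 in each of the 12 families, with dots for single females and bars for the mean of 3 or 4 sisters in Dry, Hot, Hot-Dry and Control. In family 1077 all Hot-Dry sisters lie below all Control sisters for FTZ-F1, and all Hot sisters lie below all Control sisters for HR38, opposite to most families.

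The response to the conditions also differed between families beyond the spread of sisters. The interaction of family and condition had F = 1.79 for FTZ-F1 (adjusted p = 0.0207), F = 2.95 for SVP (adjusted p = 4.6e-05) and F = 2.12 for HR38 (adjusted p = 0.00381), with 33 degrees of freedom, where 61.4% of all genes passed. Since sisters of a family in 1 condition shared a vial, a family's own response to a condition and its vial cannot be told apart here. For FTZ-F1 the difference between families was not called without family 103 (0.37, adjusted p = 0.0625) or 1005 (0.47, adjusted p = 0.0529), and the interaction was not called without family 103 (F = 1.53), 432 (F = 1.63) or 1077 (F = 1.48). The interaction of HR38 was not called without family 1077 (F = 1.63, adjusted p = 0.0701) or in limma-voom (F = 1.27, adjusted p = 0.212).

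The families at the extremes of each difference are given as descriptions. The FTZ-F1 decrease in Hot-Dry was largest in family 1077, with 39.4, 39.9, 41.7 and 44.3 cpm in Hot-Dry and 68.3, 77.1, 84.5 and 97.8 cpm in Control. No Hot-Dry sister of this family reached the lowest Control sister. Family 103 was the exception in direction, with 45.6, 54.1, 56.1 and 59.2 cpm in Hot-Dry and 43.9, 44.3, 51.9 and 54.7 cpm in Control. In this family FTZ-F1 was higher in Dry as well, with 60.9, 63.7, 69.8 and 86.6 cpm, all above its Control sisters.

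SVP in Hot was lowest relative to Control in family 1077, with 8.46, 17.1, 19.7 and 21.2 cpm in Hot and 27.6, 28.7, 29.2 and 29.3 cpm in Control. In family 348 the order was opposite, with 36.8, 38.1 and 40.2 cpm in Hot and 16.5, 18.8, 22.7 and 31.4 cpm in Control. The sisters of the 2 conditions did not overlap in either family. In family 496, which had the largest SVP decrease in Hot-Dry, the levels were 17.9, 19.2 and 20.2 cpm in Hot-Dry and 28.4, 30.4, 34.9 and 37.2 cpm in Control.

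HR38 in Hot was furthest above Control in family 103 by mean log2 level, at 16, 16.2, 22.2 and 30.7 cpm in Hot and 5.01, 5.87, 7.99 and 18.0 cpm in Control. Family 1077 had 3.08, 6.09, 8.27 and 9.20 cpm in Hot and 11.1, 18.6, 19.9 and 29.5 cpm in Control, so that all Hot sisters were below all Control sisters. Family 348 had the largest mean log2 difference in Hot-Dry, with 8.35, 19.3, 19.3 and 23.5 cpm in Hot-Dry and 3.92, 5.65, 6.96 and 10.0 cpm in Control. In the same family 2 Hot sisters were at 6.09 and 7.63 cpm and the third at 55.3 cpm, above every Hot-Dry and Control sister.

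Condition accounted for 16.6% of the variance of log2 cpm for FTZ-F1, 11.2% for SVP and 8.30% for HR38, against a median of 3.89% over the genes tested. Family accounted for 18.0%, 29.7% and 28.9% in the same order of genes. The interaction of family and condition took 19.7%, 25% and 18.5%, and sisters 45.6%, 34.1% and 44.3%. The medians over genes for these parts were 23.9%, 20.9% and 46.3%. All shares are raw parts of the sum of squares, not corrected for degrees of freedom. The interaction, with 33 degrees of freedom, takes a part from the spread of sisters alone, so its share does not measure family variation. The biological coefficient of variation within a condition was 0.219 for FTZ-F1, 0.257 for SVP and 0.619 for HR38. That of HR38 exceeded the coefficient of 96.2% of the 1000 genes closest to it in mean level, where FTZ-F1 stood at 71.4% and SVP at 70.2% among theirs. These coefficients included the Dry female with 171 cpm of HR38. Without that female the SD of HR38 in Dry was 11.1 cpm, against 25 cpm with it, and the coefficient was not examined.

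**Figure D4:**
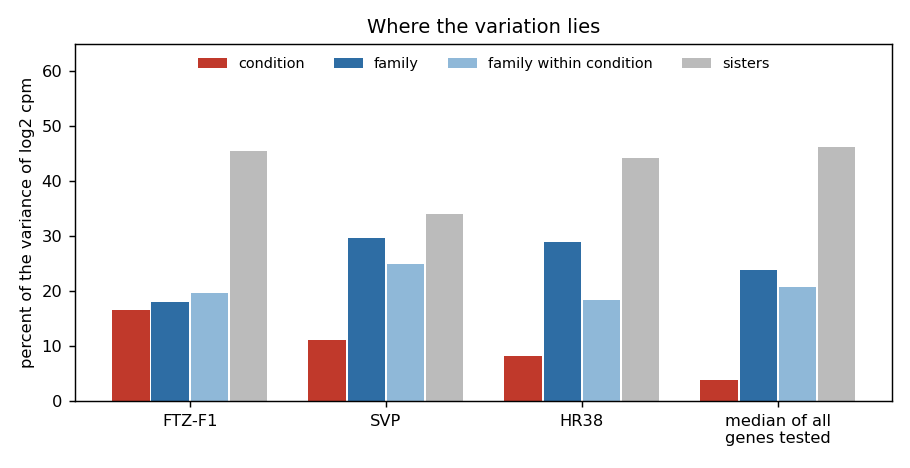
Percent of the variance of log2 cpm that went to condition, family, the interaction of family and condition (family within condition in the key) and sisters. Bars are for FTZ-F1, SVP, HR38 and the median of each part over all genes tested. Shares are not corrected for degrees of freedom. Sisters hold the largest part in every set of bars, and condition holds 16.6% for FTZ-F1 against 3.89% for the median gene.

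The 3 genes were compared with each other among sisters. Correlations of log2 cpm as deviations from the mean of the family and condition (all females, 3 pairs, 100000 permutations of females within family and condition, two-sided) were r = 0.04 for FTZ-F1 and SVP (p = 0.646, adjusted 0.646; Spearman 0.05, p = 0.589, adjusted 0.719) and r = 0.08 for FTZ-F1 and HR38 (p = 0.341, adjusted 0.512; Spearman 0.03, p = 0.719, adjusted 0.719). For SVP and HR38 r was 0.19 (p = 0.0115, adjusted 0.0346), with Spearman 0.14 (p = 0.0878, adjusted 0.263). Without the 2 females farthest from the median of the first gene, r was 0.01, 0.08 and 0.17 for these pairs. HR38 was the second gene of its pairs, so no female was removed for an extreme HR38 level. Within conditions the correlation of SVP with HR38 was 0.39 in Dry, 0.22 in Hot, 0.17 in Hot-Dry and 0.02 in Control. That of FTZ-F1 with HR38 was 0.19 in Dry, -0.17 in Hot, 0.38 in Hot-Dry and 0.02 in Control, and that of FTZ-F1 with SVP was 0.14, 0.10, -0.12 and 0.07 in the same order. The differences between conditions in these values were not tested. When deviations were taken from condition means only, so that family differences counted, FTZ-F1 and HR38 had r = 0.31. SVP had 0.26 with HR38 and 0.10 with FTZ-F1. On this measure the median absolute r with genes averaging 5 cpm or more was 0.284 for FTZ-F1, 0.194 for SVP and 0.326 for HR38.

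The other nuclear receptors of the ecdysone cascade, 7 genes on the study's list of reproduction genes, were compared in the same fit. In Hot-Dry against Control 1 was higher, 2 were lower and 4 did not pass, with a median of -0.08 against -0.01 over all genes, of which 15.7% were higher and 15.1% lower. EcR, the ecdysone receptor itself, fell by 0.28 (SE 0.077, adjusted p = 0.00275) and was at 7.66 ± 1.98 cpm in Hot-Dry (SD, n = 43) and 9.27 ± 2.23 cpm in Control (SD, n = 47). HR39, the close relative of FTZ-F1, fell by 0.14 (SE 0.048, adjusted p = 0.021). E78, whose *Drosophila* counterpart is induced by ecdysone, rose by 0.22 (SE 0.085, adjusted p = 0.0337). The call was lost in 3 of 18 alternatives for E78 (adjusted p up to 0.317), in 4 for HR39 (up to 0.299) and in 2 for EcR (up to 0.0790). In the sums with a family block EcR was called (-0.30, adjusted p = 0.0121). There E78 (0.22, adjusted p = 0.0617) and HR39 (-0.13, adjusted p = 0.0634) were not. Without family 245, 348, 432, 496 or 710 E78 was not called either, at 0.21, 0.21, 0.18, 0.20 and 0.17, nor was HR39 without family 293 (-0.12). None of the 7 was called in Hot or in Dry against Control, where the medians were 0.00 and -0.04. Of all genes 25.1% were called in Hot and 0.809% in Dry. USP, the partner that SVP and HR38 can bind, was not called in any of the 3.

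Of 6 genes of ecdysteroid synthesis on the same list, 3 were lower and 3 did not pass in Hot (12.2% of all genes were lower), with the same counts in Hot-Dry and no call in Dry. The median log2 difference was 0.01 (Dry), -0.10 (Hot) and -0.20 (Hot-Dry), against 0.00, -0.01 and -0.01 over all genes. The 3 genes were the same: Disembodied and Phantom, which encode hydroxylases of the steroid precursor, and Shade, which encodes the enzyme that converts ecdysone to its active form. Disembodied fell by 0.31 in Hot (SE 0.035, adjusted p = 7.45e-13) and by 0.29 in Hot-Dry (SE 0.036, adjusted p = 1.01e-11). Phantom fell by 0.31 in Hot and by 0.24 in Hot-Dry, and Shade by 0.18 and by 0.25. Disembodied was called in all 18 alternatives in both conditions, whereas Phantom lost its call in 1 in Hot and 2 in Hot-Dry (adjusted p up to 0.204), and Shade in 3 in Hot and 1 in Hot-Dry (adjusted p up to 0.313). Shade in Hot was also not called without family 432 (-0.15) or 863 (-0.13). The sums with a family block did not call Shade in Hot either (-0.18, adjusted p = 0.0728), and kept the other calls of the 3 genes in Hot and Hot-Dry. Against Dry the list went both ways: 2 were higher and 3 lower in Hot, and 1 was higher and 3 lower in Hot-Dry. Of all genes 32.2% and 32.3% were DE in these comparisons. The higher ones, at 0.41 and 0.39 in Hot and 0.32 in Hot-Dry, were not called against Control. That of Hot-Dry was not called in the sums with a family block (adjusted p = 0.0878).

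**Figure D5:**
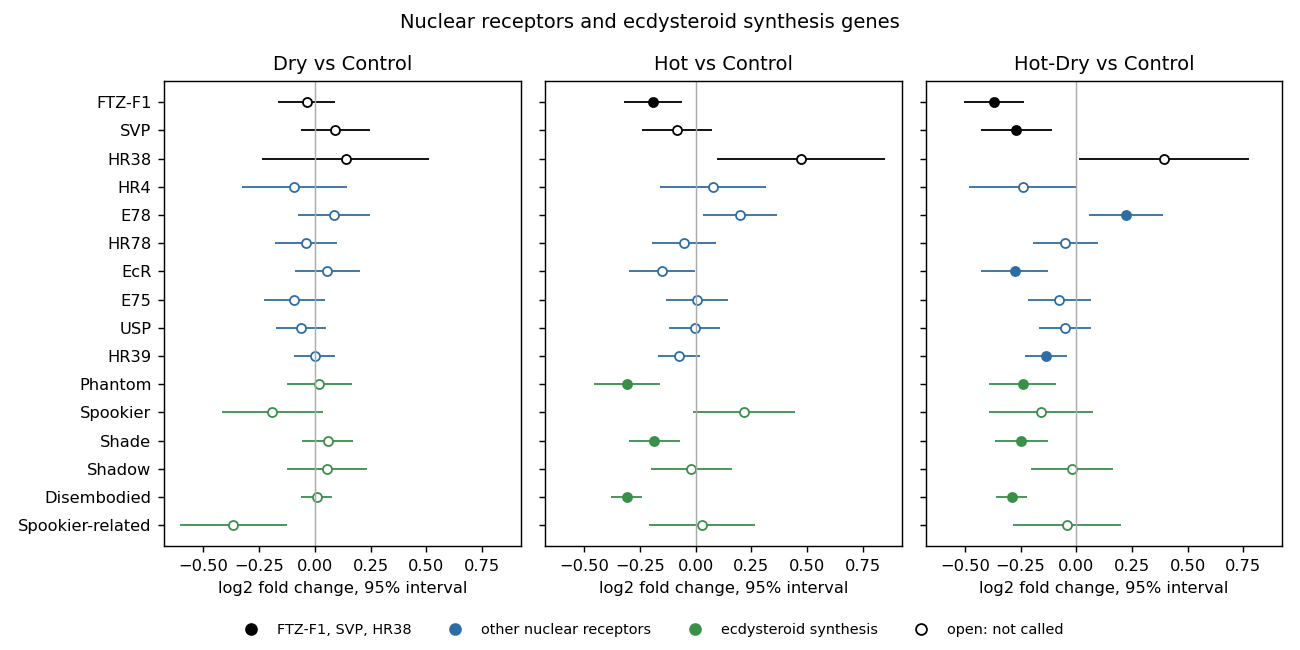
Log2 fold changes with 95% intervals of FTZ-F1, SVP and HR38 (black), 7 other nuclear receptors (blue) and 6 ecdysteroid synthesis genes (green) in Dry, Hot and Hot-Dry against Control. All values are from the fit to single females. Filled symbols passed an adjusted p of 0.05: 0 in Dry, FTZ-F1 and 3 synthesis genes in Hot, and 8 genes in Hot-Dry, of which only E78 was higher.

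Across all females, levels of the members went with those of other genes of the cascade to different degrees, described here by Pearson's r of log2 cpm as deviations from condition means. The points share families and differ in library depth, with which (as log2 counts) FTZ-F1 had r = -0.14, SVP 0.11 and HR38 -0.28. FTZ-F1 was closest to HR78 (0.50), EcR (0.50), USP (0.49) and E75 (0.48). HR38 was closest to HR78 (0.60), E75 (0.59) and USP (0.56). SVP was closest to E75 (0.38) and USP (0.35). As deviations from the mean of the family and condition, FTZ-F1 had 0.32, 0.35, 0.27 and 0.23 with the genes named for it. There it was closest to HR39 (0.40). In the same order HR38 had 0.45, 0.48 and 0.52, and SVP 0.42 and 0.42. With Vg1 and Vg2, r was 0.32 and 0.35 for FTZ-F1, -0.07 and -0.10 for HR38, and 0.17 and 0.11 for SVP. The order depended on the measure. Spearman correlations were 0.24 and 0.26 for FTZ-F1, -0.04 and -0.07 for HR38, and 0.43 and 0.35 for SVP. With the germ line markers Vasa, Piwi and Spindle E Pearson's r was -0.16, -0.09 and 0.06 for FTZ-F1. For HR38 these were -0.59, -0.45 and -0.20, and for SVP -0.37, -0.23 and -0.10. With the yolk protein receptor genes VgR-1, VgR and VgR-2, r was 0.18, 0.19 and 0.21 for FTZ-F1. For HR38 it was 0.10, 0.07 and -0.08, and for SVP 0.13, 0.19 and 0.06. The median absolute r over genes, given below, was 0.284 for FTZ-F1, 0.326 for HR38 and 0.194 for SVP. The median level of Vasa was 94.9 cpm in Dry, 79.8 cpm in Hot, 84.1 cpm in Hot-Dry and 88.5 cpm in Control. Of the 3 genes of the yolk protein receptor, VgR-2 had medians of 504 cpm in Dry, 413 cpm in Hot, 415 cpm in Hot-Dry and 509 cpm in Control. The part of tissue proportions in the differences of FTZ-F1, SVP and HR38 was not tested.

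Over the 8755 genes ranked by the same measure, the pattern most like FTZ-F1 was that of TC010654 (r = 0.71), the most like SVP that of TC008485 (r = 0.70), and the most like HR38 that of TC013172 (r = 0.77). The most opposite were TC001048 for FTZ-F1 (r = -0.61), TC007732 for SVP (r = -0.53) and TC014594 for HR38 (r = -0.71). The table does not pair these identifiers with names. The median absolute r over all ranked genes was 0.284 for FTZ-F1, 0.194 for SVP and 0.326 for HR38. Of the 5 genes most like each member, 3 stayed among the 5 for FTZ-F1, 3 for SVP and 1 for HR38 when family means were removed as well.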

How the data were processed

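RNA of whole females was sequenced single-end from libraries made with a LEXOGEN mRNA-Seq kit. The authors trimmed the reads, mapped them with STAR 2.5 to the Tcas3 genome, counted them per gene with featureCounts and deposited 1 table of raw counts, with no normalization. How strand and multi-mapping reads were handled is not given in the sources used here, nor is the run of each female, so no batch could be examined. No 2 libraries were identical (highest correlation 0.991).

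The members and gene lists were chosen with earlier results of these data known, and the lists come from the study's table of reproduction genes. Members were always named, list genes were named where they were called against Control, and the genes most and least like a member were named by rank, among genes averaging 5 cpm or more. Genes that exceeded 0.5 cpm in 5 females or more (12113 genes, where 824 of all 17078 had no count) were tested in R 4.3.3 with edgeR 4.0.16 (TMM, quasi-likelihood, 1 mean per condition, all females), with Benjamini-Hochberg adjustment over all genes tested in each comparison. SE is the absolute log2 fold change over the square root of F. Log2 cpm used a prior count of 2. Family differences were tested on 48 sums of counts with condition in the model. The interaction of family and condition was tested on single females. P-values of the fit to single females take sisters as independent. Alternatives used limma 3.58.1, DESeq2 1.42.0 and statmod 1.5.0, other normalizations and filters, blocks, sums, and sets without some females or without each family. The scripts were tested on simulated data.

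The number in a female's name gives the family and a number within it. Deviations of libraries with the same number in different conditions correlated at 0.191 on average (261 pairs), those of sisters with other numbers at 0.196 (787 pairs), and those of different families at -0.0173, so the number marks the family, as the full-sib design implies, and the second number pairs no females.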

Additional observations from a re-analysis of the deposited data

Results flagged for a closer look

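Dixon's test at the 95% level was run on the cpm of groups of 4 sisters over the 3 genes. In 9 of the 117 groups 1 sister stood apart from the others. Chance gives about 1 in 20 where levels are normally distributed, which was not checked for cpm. HR38 had 6 of these groups. The level was 171 cpm in female 2 of family 293 in Dry, with sisters at 12.5 to 34.3 cpm, and 95.2 cpm in female 1 of family 1005 in Hot, with sisters at 33.1 to 37.3 cpm. It was 38.9 cpm in female 1 of family 245 in Dry (sisters 9.76 to 13.1 cpm), 35.7 cpm in female 2 of family 710 in Control (12.0 to 13.9 cpm) and 14.6 cpm in female 1 of family 863 in Dry (9.08 to 10.0 cpm). A sister stood below the others in family 245 in Hot, where female 2 had 15.1 cpm (27.5 to 29.0 cpm). For FTZ-F1, female 1 of family 1077 in Dry had 77.9 cpm (sisters 59.5 to 62.1 cpm) and female 2 of family 245 in Dry had 60.0 cpm (77.1 to 79.4 cpm). For SVP, female 3 of family 799 in Dry had 38.4 cpm (31.3 to 32.4 cpm).

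The differences between conditions were not the same in all families, by the interaction of family and condition, for FTZ-F1 (F = 1.79), SVP (F = 2.95) and HR38 (F = 2.12). In family 1077, the mean log2 level of HR38 differed from Control by -1.56 in Hot and by -0.50 in Hot-Dry. In the other families, 638 excepted, it was higher in Hot than in Control.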

How the results depend on the processing

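Of 738 values of the 3 genes under 18 alternatives and without each family in turn, 669 kept their direction and their side of the threshold, 21 lost a call, 33 gained one and 15 changed sign, all 15 of these in HR38 and with no call. FTZ-F1 in Hot against Control lost its call when only the groups compared were fitted (-0.19), in sums of sisters (-0.18), in sums with a family block (-0.18), in limma-voom with an estimated correlation of 0.350 within family and condition (-0.19), without libraries under 6000000 counts (-0.14) and without females under 3% vitellogenin reads (-0.17, an analysis chosen after seeing the data, as was that without the Dry female 293-2). SVP lost its call in Hot-Dry against Control in sums (-0.26) and in limma-voom with the correlation (-0.28), and against Dry in sums (-0.34). The family by condition interaction of HR38 was not called in limma-voom (F = 1.27).

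With the replicate block, the fit gained calls for HR38 in Hot (0.41) and Hot-Dry (0.41) against Control, in Hot-Dry (0.54) and Hot (0.54) against Dry, and in Hot against Dry for FTZ-F1 (-0.18) and SVP (-0.20); it changed no other call. The same 6 gained calls with a family block, at 0.51, 0.44, 0.45, 0.52, -0.17 and -0.19. In sums with a family block only 1 of these 6 was called, HR38 in Hot against Dry; the adjusted p was 0.0792 and 0.148 for HR38 in Hot and Hot-Dry against Control, 0.0968 in Hot-Dry against Dry, and 0.121 for FTZ-F1 and 0.260 for SVP in Hot against Dry. HR38 was called in Hot against Control with DESeq2 (0.48), limma-voom (0.49), the groups compared only (0.47), library size as a covariate (0.50) and without the Dry female 293-2 (0.47), and in Hot-Dry against Control with limma-voom (0.51). Against Dry it was called with limma-voom in Hot-Dry (0.61) and Hot (0.59), in sums with a family block in Hot (0.59), and without that female in Hot-Dry (0.53) and Hot (0.61). FTZ-F1 in Hot against Dry was called with limma-voom (-0.17).

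HR38 changed sign in Dry against Control with limma-voom (-0.10), the replicate block (-0.13), the family block (-0.010), sums with a family block (-0.052), limma-voom with the correlation (-0.14) and without the Dry female 293-2 (-0.14). In Hot-Dry against Hot it did so with limma-voom (0.023) and with the correlation (0.012), and in the interaction of heat and drought with limma-voom (0.12), the replicate block (0.13), the correlation (0.15) and without that female (0.060). The cause was not tested.

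Without 1 family at a time, FTZ-F1 in Hot against Control ranged from -0.21 to -0.15 and lost its call without family 245, 432, 496, 863 or 1077. FTZ-F1 ranged from -0.19 to -0.11 in Hot against Dry (called without 348 or 710), from -0.23 to -0.15 in Hot-Dry against Hot (called without 432), from 0.37 to 0.49 in family differences (lost without 103 or 1005) and from F = 1.48 to 2.00 in the interaction of family and condition (lost without 103, 432 or 1077). HR38 ranged from 0.38 to 0.63 in Hot against Control (called without 293, 638 or 1077), from 0.21 to 0.62 in Hot against Dry and from 0.18 to 0.56 in Hot-Dry against Dry (both called without 293), and from F = 1.63 to 2.38 in its interaction of family and condition (lost without 1077). It ranged from -0.13 to 0.18 in Dry against Control and from -0.36 to 0.077 in the interaction of heat and drought, with the sign turned without 293, and from -0.18 to 0.022 in Hot-Dry against Hot, with the sign turned without 1005. SVP in Hot against Dry ranged from -0.22 to -0.12 (called without 348).

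Counts of DE genes moved by over 1.5 times in sums of sisters, to 1 (Dry), 740 (Hot) and 1313 (Hot-Dry) against Control, where the fit to single females gave 98, 3041 and 3722. They were 5 in Dry and 1960 in Hot in sums with a family block, 1, 791 and 1467 with the correlation, and 64 in Dry with limma-voom, 64 without family 245 and 172 with a family block. Against Dry they were 1498 (Hot-Dry) and 1549 (Hot) in sums and 1558 and 1430 with the correlation, where the fit to single females gave 3910 and 3900. Hot-Dry against Hot, with 276 in that fit, had 437 with the replicate block, 547 with a family block, 426 without libraries under 6000000 counts, 168 and 152 without family 638 and 710, 46 in sums with a family block, 13 with the correlation and 7 in sums. The interaction of heat and drought had 0 to 3. Of 630 values of list genes called in the reported fit, 569 kept the call and 61 lost it, with no change of sign, whereas 148 of 2087 uncalled ones changed sign. HR38 had under 50 counts in single females of each condition, and E78 had a median of 24 counts, where counting error limits the precision.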
